A study of Caenorhabditis elegans with 20 samples.

Results

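The genes described here encode the contractile apparatus of nematode muscle and the structures that anchor it to the cell edge. They were the 40 genes of a fixed list, found by symbol among the 46778 genes of each table, and all 40 were present and tested. By role the list held 4 myosin heavy chains, 3 myosin light chains, 4 actins, 11 other thin filament genes, 6 thick filament and giant protein genes, 10 attachment genes and 2 calcium channels. Total RNA had been sequenced from whole Caenorhabditis elegans on day 1 of adulthood, with 4 libraries from each of 5 strains. The strains were N2, the wild type; CF3050, which lacks a working pgrn-1 gene; and AWK33, AWK43 and AWK107, which carry the same pgrn-1 loss together with granulin 1, granulin 2 and granulin 3. Progranulin, the product of pgrn-1, is a secreted protein that is cut into granulins. Neither the promoter of each granulin nor the way it was introduced is stated in the labels. Each granulin was carried by 1 strain, so a granulin and any other feature of its strain cannot be told apart. Whether the 4 libraries per strain were separate cultures is not stated, and p-values then describe no more than the spread of these samples, which may be technical.

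In striated body wall muscle, thick filaments of myosin slide along thin filaments of actin when calcium binds to troponin, which moves tropomyosin away from the myosin binding sites on actin. Filaments are held at dense bodies and M-lines, where integrins span the membrane, bind the basement membrane protein perlecan outside the cell and recruit vinculin, alpha-actinin and other adaptors inside it. Giant proteins with immunoglobulin and fibronectin repeats, twitchin, obscurin and titin, organise the thick filaments. The pharynx, the pumping organ of feeding, is a separate muscle with myosin heavy chains and troponins of its own.

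Libraries held 48279370 to 128776517 reads. The mutated gene pgrn-1 had 6 to 32 reads in the null libraries and 527 to 871 in wild type, and 7283 to 57202 in the granulin strains, where reads of a granulin could also be counted under this gene. The defining markers examined for muscle, pharynx, intestine, hypodermis, neurons, sperm and oocytes had reads in all 20 libraries, except msp-10, which had none in 1 library. The muscle regulators hlh-1 and unc-120 had 27 to 199 and 95 to 858 reads. Several libraries stood apart from the rest of their strain. Ribosomal RNA took 44.8% of reads in wild-type replicate 4, 25.9% in granulin 1 replicate 3, 52.7% and 25.02% in granulin 2 replicates 3 and 4, and at most 14.5% in the other 16. A length slope was taken in each library over the tested protein-coding genes. It is the slope of log2 level, relative to the gene's mean over libraries, on log2 length of the longest transcript. This measure of how a library represents long and short transcripts was -0.83 in granulin 1 replicate 3 and -0.38 to 0.29 in the other 19. Sample names of the null and granulin 2 carry the letters E to H and those of the other 3 strains A to D, with no meaning given. If the letters are batches, differences between strains of the 2 letter sets cannot be told apart from a batch difference.

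Per length of transcript, actins, the light chain gene mlc-2 and some of the small proteins of the thin filament were the most abundant members in wild type. Values were counts relative to library size and scaled between libraries (CPM), divided by summed exon length in kilobases. The highest medians over the 4 wild-type libraries were 943 CPM per kb for act-2, 795 for act-4, 643 for the regulatory light chain gene mlc-2, 407 for act-1 and 298 for act-3. Next were pat-10 (troponin C) at 261, tnt-2 (a troponin T) at 223 and lev-11 (tropomyosin) at 179.5. The main body wall heavy chain unc-54 had a median of 53.1 CPM per kb and paramyosin, unc-15, had 73.1. The lowest medians were those of ttn-1 at 0.117, myo-1 at 0.432, myo-2 at 0.524 and tnt-4 at 0.646, the last 3 being pharyngeal genes. Attachment genes lay between, from 43.4 for pat-3 to 3.76 for pat-2. Of the 39 pairs of neighbours in this order, only mlc-2 and act-1 had wild-type values that did not overlap.

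**Figure D1:**
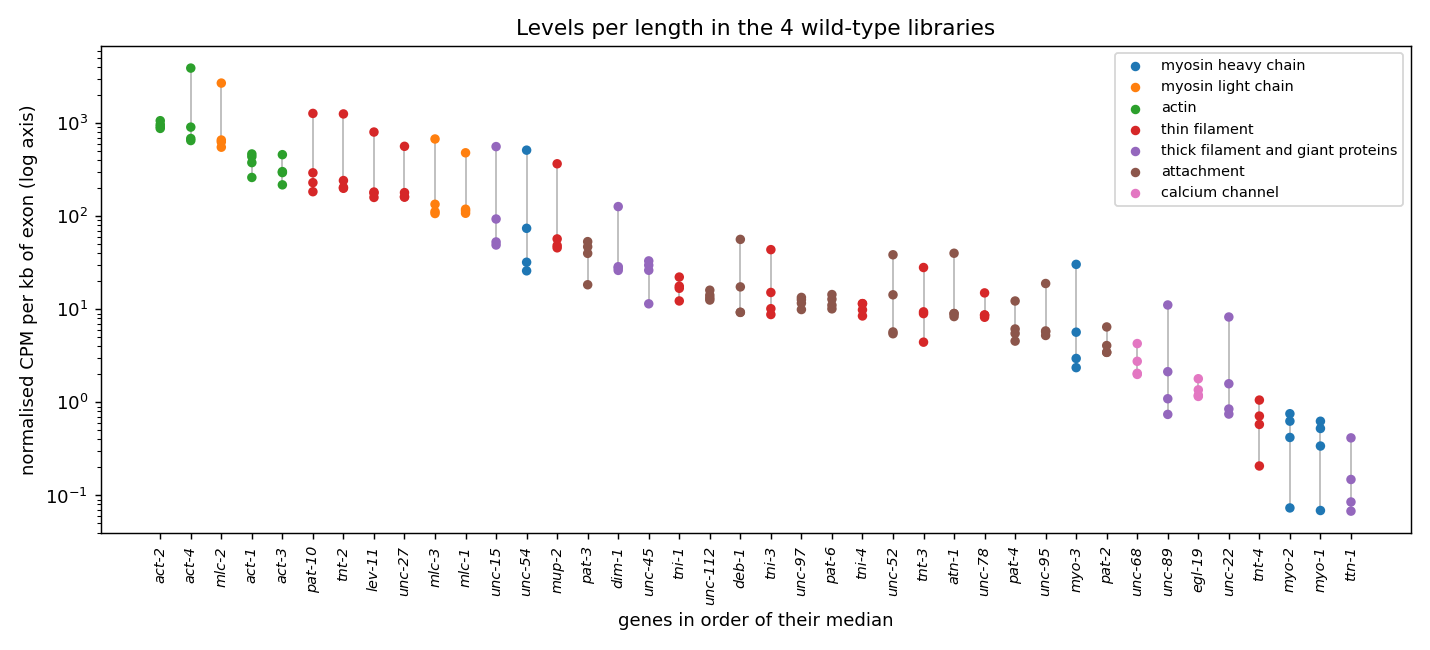
Level per length of the 40 genes in wild type. Each point is 1 of 4 libraries, in scaled CPM per kb of summed exons on a log axis, and genes are ordered by their median. Actins, mlc-2, pat-10, tnt-2 and lev-11 lead, from 943 CPM per kb for act-2, and ttn-1 is last at 0.117. The single high point in many genes is replicate 4.

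Among the 5 strains, 3 of the 40 genes differed (limma moderated F test, Benjamini-Hochberg adjusted over 15737 genes, threshold 0.05), against 21.5% of all genes tested. These were tni-1, a troponin I (adjusted p = 0.00326), pat-2, the alpha subunit of the muscle integrin (adjusted p = 0.00652), and ttn-1, the titin-like gene (adjusted p = 0.0374). The count was 5 without wild-type replicate 4 and 6 without granulin 3 replicate 3, with 23.5% and 20% of all genes called. It fell to 2 without wild-type replicate 2, any 1 null library, or granulin 2 replicate 1 or 3, with 17.6% to 20.3%. In the F test the call of ttn-1 was lost in 11 of 34 alternatives (adjusted p up to 0.263). Those of tni-1 and pat-2 stood in all 34. The actin gene act-1 was called in 1 of the pairwise comparisons (adjusted p of the F test = 0.055), and 36 of the 40 genes were called in none of the tests. Whole animals were sequenced, so fewer muscle cells and less RNA per muscle cell cannot be told apart.

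No member passed the threshold between the pgrn-1 null and wild type, where 0.197% of all genes did (0.0254% higher and 0.172% lower). In limma's test 3 members had an unadjusted p under 0.05, act-1 and act-3 lower and pat-6, the parvin gene, higher in the null. The share of all genes at this unadjusted threshold was not counted, so these 3 members have no background to be set against. Libraries did not overlap in these 3 members and in pat-2, which was lower in the null, so 1 member was higher and 3 were lower without overlap, against 10.4% of all genes (4.73% higher and 5.62% lower). With no scaling beyond total depth, libraries did overlap in act-3 and pat-2. The members' median log2 fold change was -0.49, and that of all genes was close to 0. This median rested on 1 library, for it was -0.04 without wild-type replicate 4.

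Granulin 1 differed from the null in none of the 40 genes, against 0.47% of all genes (0.432% higher and 0.0381% lower), and from wild type in none, against 0.324% (0.261% higher and 0.0635% lower). At an unadjusted p under 0.05, limma's test gave 0 members against the null and 1 against wild type, unc-52. How many of all genes passed this unadjusted threshold was not counted. All members overlapped the null, and unc-68 alone, lower, did not overlap wild type. Of all genes, 4.55% did not overlap the null (2.69% higher and 1.86% lower) and 4.15% wild type (2.76% higher and 1.39% lower). The members' medians were -0.02 and -0.19, and without granulin 1 replicate 3 the median against wild type was -0.44, while without wild-type replicate 4 it was 0.06.

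Granulin 2 was higher than the null in 2 members, pat-2 and ttn-1, and lower in none, against 21.6% of all genes called (17.5% higher and 4.18% lower). Libraries did not overlap in 7 members, unc-54, tni-1, unc-22, unc-89, ttn-1, unc-52 and pat-2, each higher in granulin 2, against 30.3% of all genes without overlap (20.8% higher and 9.48% lower). The members' median was 0.37 and that of all genes was 0.04. The members' median was 0.17 without null replicate 2, 0.20 without null replicate 3 or granulin 2 replicate 4, 0.57 without granulin 2 replicate 2, and 0.07 without the 4 libraries with over 20% ribosomal RNA. The median of all genes moved too. It was -0.12 without null replicate 2, 0.05 without null replicate 3 and 0.07 without granulin 2 replicate 4. It was 0.10 without granulin 2 replicate 2 and -0.002 without those 4 libraries. Against wild type, pat-2 was higher and act-1 lower, with 18.3% of all genes called (15.5% higher and 2.8% lower). These 2 were also the members without overlap there, against 21.6% of all genes (16.4% higher and 5.17% lower). The count against wild type fell to 0 when wild-type replicate 2 was left out, with 16.5% of all genes called. It was 1 without wild-type replicate 1 or 3 or granulin 2 replicate 1 or 3, with 15.2% to 16.4%. Without wild-type replicate 4 it was 4, when unc-54 and ttn-1 were added, with 20% of all genes called.

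Granulin 3 was higher than the null in tni-1 and pat-2 and lower in none, against 12.7% of all genes called (11.2% higher and 1.57% lower). Against wild type tni-1 alone was called, higher, with 11.2% of all genes called (10.7% higher and 0.566% lower). The called genes were also those without overlap against the null, where 22.2% of all genes did not overlap (15.9% higher and 6.23% lower), and against wild type tni-1 and tni-4 were higher and mlc-2, act-2 and tnt-2 lower without overlap, against 15.1% of all genes (13.1% higher and 1.95% lower). The count against the null was 1 without null replicate 2 (7.08% of all genes) and 4 without granulin 3 replicate 4 (10%). Against wild type it was 0 without wild-type replicate 1 (10.8% of all genes) or granulin 3 replicate 4 (9.59%). It was 2 there without granulin 3 replicate 1 (9.84%). The members' medians were 0.03 against the null and -0.35 against wild type. Without granulin 3 replicate 3 they were 0.44 and -0.03, and without wild-type replicate 4 the second was 0.04. The 3 granulin strains were compared with the same null libraries and the same wild-type libraries, so these comparisons are not independent of each other.

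**Figure D2:**
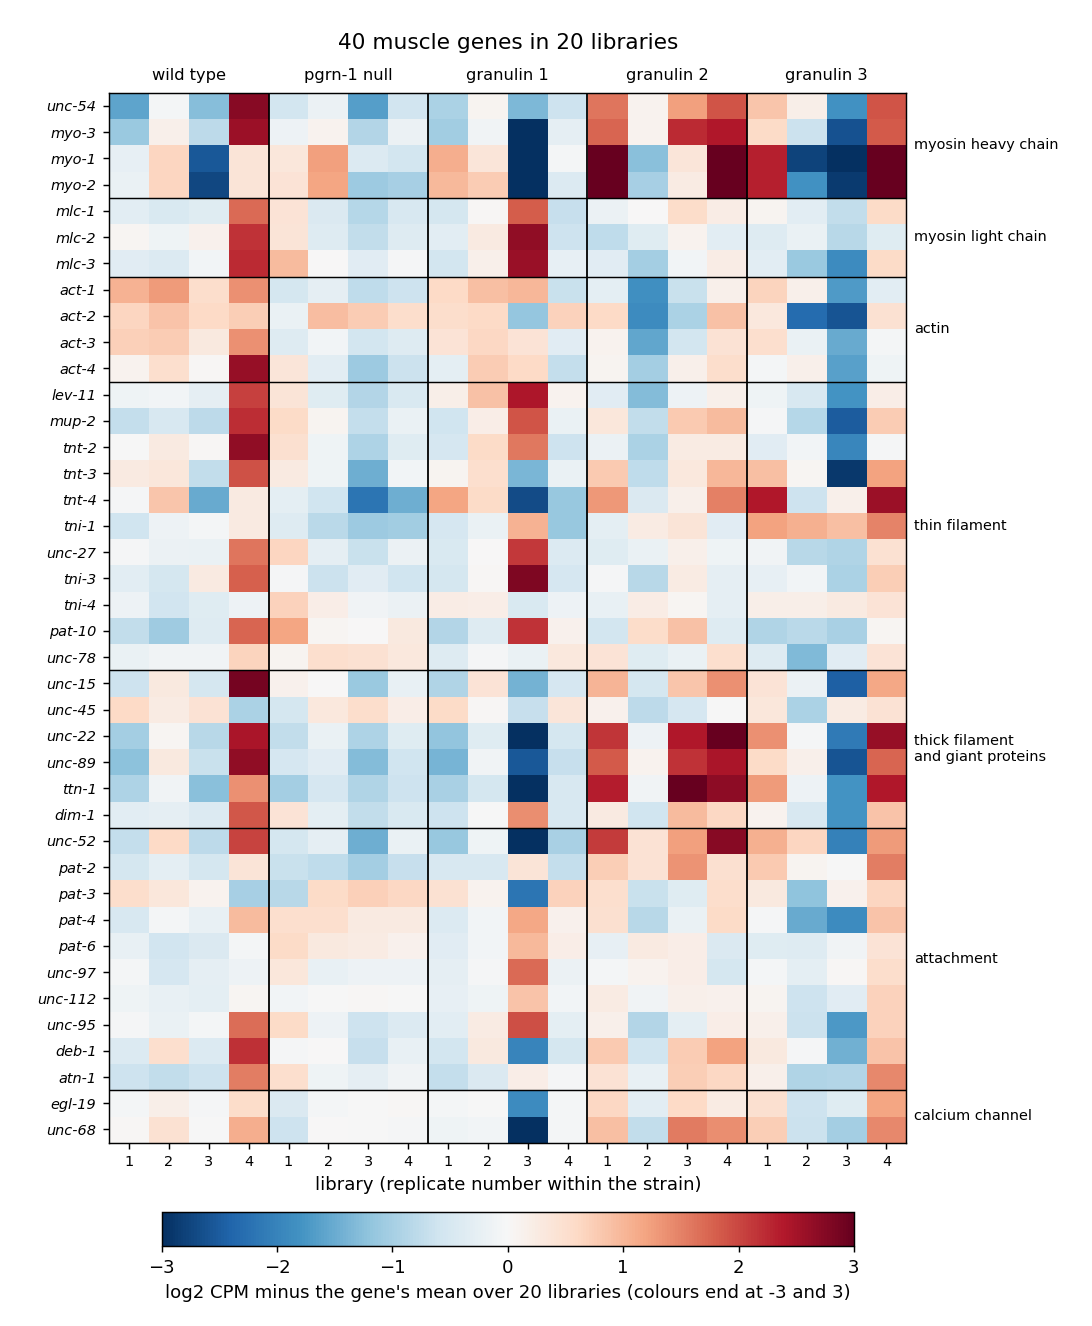
Level of the 40 genes in the 20 libraries. Rows are genes grouped by role, columns are libraries grouped by strain, and colour is log2 CPM minus the gene's mean over all 20 libraries. Wild-type replicate 4 is high across most rows. Granulin 1 replicate 3 is high in light chains and most troponins, but not tnt-3, tnt-4 or tni-4, and low in myosin heavy chains and giant proteins. Granulin 3 replicate 3 is low in most rows. In every library of the strain, pat-2 is above its mean in granulin 2 and tni-1 in granulin 3.

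The integrin alpha subunit gene pat-2 (chromosome III, 8818899 to 8825266, WBcel235) rose in both granulin 2 and granulin 3. It encodes the subunit that pairs with the beta subunit PAT-3 at dense bodies and M-lines and is needed to assemble them. Its level in scaled CPM was 13.7, 16.2, 13.7 and 25.7 in wild type, 12.4, 11.7, 9.77 and 12.3 in the null, 14.2, 14.1, 25.8 and 11.97 in granulin 1, 32.8, 26.7, 50.001 and 27.4 in granulin 2, and 34.3, 21.1, 19.6 and 57.2 in granulin 3. Every granulin 2 library was above every null and wild-type library, and every granulin 3 library was above every null library, while granulin 3 overlapped wild type. Against the null, the log2 fold change (limma, ± standard error) of granulin 2 was 1.52 ± 0.34, adjusted p = 0.0022, and that of granulin 3 1.38 ± 0.34, adjusted p = 0.00972. Against wild type, granulin 2 was at 0.99 ± 0.34, adjusted p = 0.0497, and granulin 3 at 0.84 ± 0.34, adjusted p = 0.147. Granulin 1 and the null did not differ beyond their spread (0.46 ± 0.34, adjusted p = 0.814). Leaving out null replicate 2 put granulin 3 against the null at adjusted p = 0.0631, and leaving out wild-type replicate 1, 2 or 3 or granulin 2 replicate 1, 3 or 4 put granulin 2 against wild type at adjusted p of 0.055 to 0.179. Annotated exons of pat-2 overlap those of F54F2.9 on the other strand by 41 bases, and whether reads were counted by strand is not stated.

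The partner subunit pat-3 (chromosome III, 3908931 to 3914149) was called in no comparison. Its level was 151.8, 134, 114 and 52.3 in wild type, 58.5, 157, 173 and 163 in the null, 143, 112.3, 23.1 and 169 in granulin 1, 149, 66.2, 82.03 and 151 in granulin 2, and 128, 45.8, 116 and 164 in granulin 3. It was highest in null replicate 3 and lowest in granulin 1 replicate 3, and all 5 strains overlapped. Against the null, granulin 2 was at -0.27 ± 0.58, adjusted p = 0.815, and granulin 3 at -0.31 ± 0.58, adjusted p = 0.796. The difference between both subunits was not tested.

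The perlecan gene unc-52 (chromosome II, 14647321 to 14684456), whose product is the basement membrane ligand under the muscle, was high in granulin 2 without passing the threshold. Its level was 81.4, 204, 77.8 and 549 in wild type, 93.1, 111, 48.3 and 117 in the null, 60.7, 123.2, 8.79 and 68.7 in granulin 1, 577, 182, 314 and 894 in granulin 2, and 281, 210.0, 33.1 and 322 in granulin 3. Each granulin 2 library was above each null library, as in 20.8% of all genes, and wild-type replicate 4 was above granulin 2 replicates 2 and 3. The log2 fold change in granulin 2 against the null was 2.24 ± 0.82, adjusted p = 0.0566, and 0.86 ± 0.82, adjusted p = 0.569, in granulin 3. Without granulin 2 replicate 2 the first comparison passed (2.65, adjusted p = 0.0363).

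None of the intracellular attachment genes was called. Vinculin, deb-1, which anchors actin to the dense body, ranged over the 20 libraries from 12.05 to 219 CPM, and the alpha-actinin gene atn-1 from 24.4 to 130.1. The kindlin gene unc-112, which binds the integrin tail, was at 31.2 to 39.8 CPM in wild type, 35.9 to 38.9 in the null and 35.6 to 45.7 in granulin 2. Its exons overlap those of gasr-8 on the other strand by 122 bases. The complex of integrin-linked kinase (pat-4), parvin (pat-6) and PINCH (unc-97) stood at 2.78 to 22.9, 12.7 to 36.9 and 14.9 to 69.7 CPM over the 20 libraries. Parvin was 20.7 to 28.1 CPM in the null and 12.7 to 18.1 in wild type, with no overlap and a log2 fold change of 0.63 ± 0.28, adjusted p = 0.458. The LIM domain gene unc-95 ranged from 2.09 to 26.2 CPM.

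Troponin I is the inhibitory subunit of the troponin complex, and tni-1 (chromosome X, 11375887 to 11377470) is 1 of its 4 genes in the list. It rose in granulin 3. Its level was 12.7, 17.4, 18.3 and 22.99 in wild type, 14.8, 10.9, 9.03 and 9.27 in the null, 13.5, 16.7, 39.9 and 8.78 in granulin 1, 15.8, 22.7, 25.3 and 15.2 in granulin 2, and 44.7, 40.3, 36.1 and 53.5 in granulin 3. All granulin 3 libraries were above all libraries of wild type, the null and granulin 2, and granulin 1 replicate 3 was within their range. The log2 fold change was 2.00 ± 0.36, adjusted p = 0.000987, against the null and 1.30 ± 0.36, adjusted p = 0.017, against wild type. Granulin 2 libraries were also above all null libraries (0.84 ± 0.36, adjusted p = 0.107) without passing. The call against wild type was lost without wild-type replicate 1 (adjusted p = 0.0655) or granulin 3 replicate 4 (adjusted p = 0.0594). On the deposited depth scaling the log2 fold change against wild type was 2.11.

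None of the other 3 troponin I genes was called. The main body wall gene unc-27 stood at 149 to 525 CPM in wild type, 108 to 268 in the null and 91.5 to 236 in granulin 3. Granulin 3 against the null was -0.23 ± 0.53, adjusted p = 0.838, for unc-27, 0.28 ± 0.60, adjusted p = 0.824, for tni-3 and 0.10 ± 0.24, adjusted p = 0.848, for the pharyngeal gene tni-4. Within each library, the share of tni-1 in the summed level per length of the 4 troponin I genes was 6.63% ± 2.51 in wild type, 5.14% ± 0.806 in the null, 5.95% ± 1.62 in granulin 1, 8.96% ± 1.51 in granulin 2 and 19.68% ± 3.78 in granulin 3 (SD, n = 4). The lowest granulin 3 library was at 15.1% and the highest library of any other strain at 10.7%. The share of unc-27 was 67.5% ± 6.02 in granulin 3 and 83.4% ± 3.71 in wild type. These shares were chosen after the levels were seen and were not tested.

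Shares within the other 4 families examined were also chosen after the levels were seen and were not tested. Troponin T binds tropomyosin, and its main genes mup-2 and tnt-2 have exon lengths of 1465 and 1513 bases. The share of mup-2 among the 4 troponin T genes was 19.4% ± 1.91 in wild type and 29.99% ± 1.03 in the null, with the highest wild-type library at 22.2% and the lowest null library at 28.8%. It was 28.7% ± 5.21 in granulin 1, 34.5% ± 3.01 in granulin 2 and 26.95% ± 9.25 in granulin 3. The regulatory light chain gene mlc-1 made up 15.5% ± 0.718 of mlc-1 and mlc-2 in wild type, 18.98% ± 0.637 in the null, 16.4% ± 3.04 in granulin 1, 25.6% ± 1.32 in granulin 2 and 24.2% ± 5.93 in granulin 3. Both are near copies of each other, so reads may have been split or lost between them. Neither gene of these pairs was called in any comparison. Among the 4 actins, the share of act-1 was 6.98 to 7.93% in the null and 8.05 to 16.6% in wild type. Among the 4 myosin heavy chains, that of myo-3 was 3.64 to 5.81% in granulin 3 and 7.33 to 9.91% in the null.

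**Figure D3:**
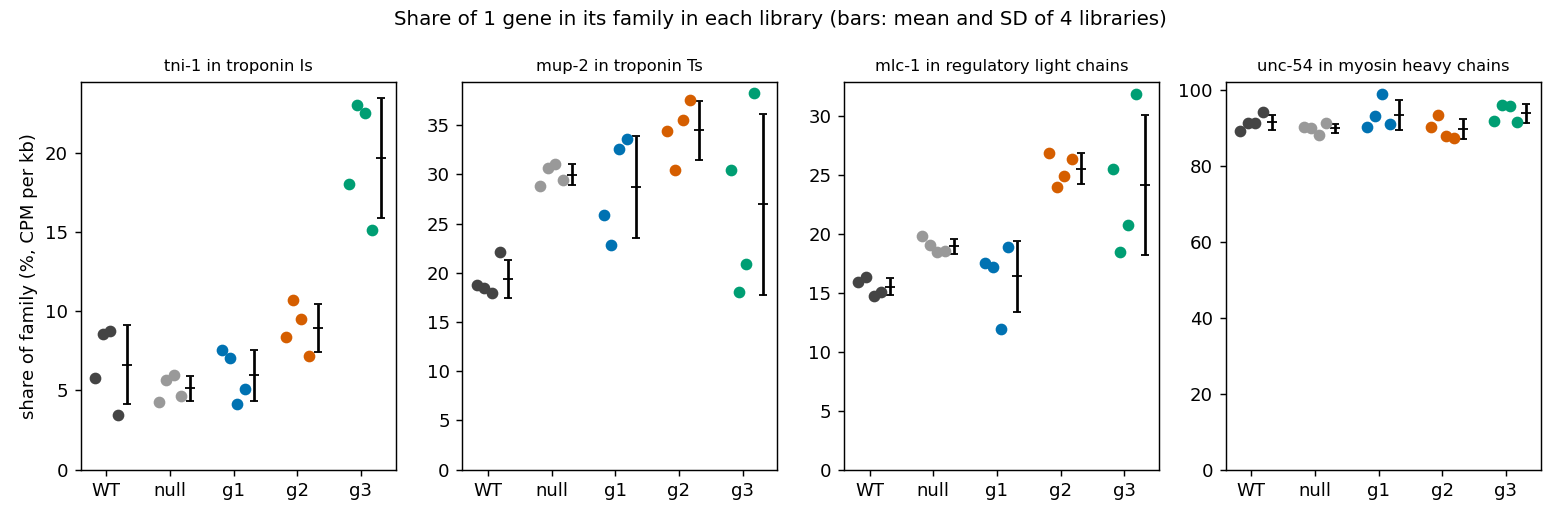
Share of 1 gene in its family, in percent of the summed CPM per kb, in each of the 20 libraries with the mean and SD of 4. The granulin 3 libraries lie at 15.1% or more for tni-1 and all others at 10.7% or less; mup-2 and mlc-1 shares of wild type and the null do not overlap, and unc-54 is most of the myosin heavy chains in every library.

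The remaining thin filament genes were called in no comparison. Tropomyosin, lev-11, was at 249.8 to 605 CPM in the null and 379 to 1911 in wild type, where replicate 4 alone was above 433 CPM. Troponin T tnt-2 was at 302 to 1899 in wild type and 78.1 to 293 in granulin 3, each granulin 3 library below each wild-type library (-1.34 ± 0.62, adjusted p = 0.229). The pharyngeal troponin T tnt-4 was the scarcest of them at 0.127 to 4.83 CPM, and was 2.18 ± 0.78, adjusted p = 0.0754, in granulin 3 against the null. Troponin C pat-10, the calcium-binding subunit, ranged from 179 to 1681 CPM and was 378 to 847 in the null. Troponin T tnt-3 and the troponin I tni-3 ranged from 4.90 to 138 and 6.22 to 83.6 CPM, and unc-78, an actin-interacting protein that turns filaments over, from 7.64 to 30.4.

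The actin gene act-1 was lower in granulin 2 than in wild type. The fold changes of all 4 actin genes were below 0 in the null, granulin 2 and granulin 3 against wild type, except that act-2 in the null was at 0.23 on the deposited depth scaling, and the other 3 genes were called in none of them. The actin coding sequences are near copies of each other, and reads may have been split or lost between them, so single values are uncertain. Exons of act-1 and act-3 are also overlapped by noncoding RNAs on the other strand over 150 bases each. The level of act-1 (chromosome V, 11081052 to 11082415) was 476, 552, 329.6 and 589 in wild type, 159, 192, 134 and 150.3 in the null, 349, 425, 455 and 144 in granulin 1, 188, 63.9, 145 and 255 in granulin 2, and 362, 255, 71.05 and 183 in granulin 3. Each granulin 2 and each null library was below each wild-type library, and granulin 1 and granulin 3 overlapped wild type. The log2 fold change against wild type was -1.71 ± 0.50, adjusted p = 0.0185, in granulin 2, -1.59 ± 0.50, adjusted p = 0.267, in the null, -1.35 ± 0.50, adjusted p = 0.102, in granulin 3 and -0.60 ± 0.50, adjusted p = 0.858, in granulin 1. Without wild-type replicate 2 granulin 2 was at adjusted p = 0.0503, and without granulin 2 replicate 2 at adjusted p = 0.0885.

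The neighbouring act-3 (chromosome V, 11071690 to 11074498) was also low in the null, without a call. Its level was 458, 469, 338 and 714 in wild type, 213, 261, 189 and 213 in the null, 369, 425, 367 and 219 in granulin 1, 298, 93.5, 189.9 and 376 in granulin 2, and 392, 242, 96.4 and 265 in granulin 3. Null libraries did not overlap wild type on the scaled CPM (-1.13 ± 0.46, adjusted p = 0.392). On the deposited depth scaling null replicate 1 was above wild-type replicate 4. Granulin 2 overlapped wild type by its highest library (-1.18 ± 0.46, adjusted p = 0.0864).

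The level of act-2 (chromosome V, 11076777 to 11078154) was 1176, 1360.2, 1124 and 1239 in wild type, 649, 1427, 1274 and 1077 in the null, 1074, 1130.0, 332 and 1208 in granulin 1, 1138, 203, 387 and 1369 in granulin 2, and 930.0, 151.7, 124 and 1021 in granulin 3. It was lowest in granulin 3 replicates 2 and 3 and granulin 2 replicate 2, and granulin 3 against wild type, where the libraries did not overlap, was -1.74 ± 0.71, adjusted p = 0.149. The level of act-4 (chromosome X, 4960621 to 4964413), on another chromosome than the other 3, was 1094, 1450.0, 1039.9 and 6245 in wild type, 1313, 824, 478 and 657 in the null, 829, 1736, 1557 and 623 in granulin 1, 1090.0, 505, 1131 and 1462 in granulin 2, and 984, 1135, 331 and 934 in granulin 3. Wild-type replicate 4 was above every other library, and no fold change of act-4 passed (-1.23 ± 0.60, adjusted p = 0.491, for the null against wild type). Summed over the 4 genes, actin was 2832 to 8787 CPM in wild type and 2076 to 2704 in the null. Granulin strain 1 had 2193 to 3716, strain 2 had 866 to 3463 and strain 3 had 623 to 2668. The sum does not depend on how reads were split between these copies, though lost reads would lower it. Every null library was below every wild-type library on the scaled CPM. On the deposited depth scaling they overlapped, with null replicate 1 (scaling factor 1.49) above wild-type replicates 1, 2 and 3. On the deposited depth scaling the median log2 fold change of all genes was 0.40 in the null, 0.20 in granulin 2 and 0.81 in granulin 3 against wild type.

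The giant titin-like gene ttn-1 (chromosome V, 6120909 to 6202632, 56044 exonic bases) rose in granulin 2. Its level was 4.77, 8.32, 3.80 and 23.3 in wild type, 4.47, 6.32, 4.84 and 5.89 in the null, 4.58, 6.26, 0.561 and 6.44 in granulin 1, 46.1, 8.42, 88.1 and 57.8 in granulin 2, and 21.8, 8.11, 2.58 and 47.3 in granulin 3. All granulin 2 libraries were above all null libraries, although granulin 2 replicate 2 was close to them and below wild-type replicate 4. The log2 fold change against the null was 2.81 ± 0.87, adjusted p = 0.024, and against wild type 2.28 ± 0.87, adjusted p = 0.0797. In granulin 3 against the null it was 1.18 ± 0.87, adjusted p = 0.441. The call against the null was lost without null replicate 1, 2 or 3 or granulin 2 replicate 1, 3 or 4, at adjusted p of 0.0531 to 0.0873. Without the 4 libraries over 20% ribosomal RNA, the log2 fold change was 1.87 (adjusted p = 0.147). The count of members higher in granulin 2 than the null was then 1, pat-2, with 17% of all genes called. It was 1 without each of those 6 libraries, with 17.2% to 18.9% of all genes called. Without granulin 2 replicate 2 it was 4, with unc-89 and unc-52 added, beside 21.3% of all genes.

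Twitchin and obscurin were also higher in every granulin 2 library than in every null library, without a call. Of all genes, 20.8% were higher there without overlap. The twitchin kinase gene unc-22 was at 32.2 to 288 CPM in granulin 2 and 18.6 to 31.1 in the null (2.41 ± 1.07, adjusted p = 0.125), and its exons overlap a noncoding RNA on its own strand by 130 bases. The obscurin gene unc-89 was at 48.9 to 249 in granulin 2 and 18.4 to 35.8 in the null (2.33 ± 0.83, adjusted p = 0.0511). Paramyosin, unc-15, the core of the thick filament, ranged from 47.3 to 1915 CPM and was 0.97 ± 0.76, adjusted p = 0.43, in granulin 2 against the null. The immunoglobulin domain gene dim-1 ranged from 24.98 to 315 CPM. The myosin chaperone unc-45 had a range of 39.5 to 114 CPM, with its lowest values in wild-type replicate 4 and granulin 3 replicate 2.

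None of the 4 myosin heavy chains was called in any comparison, and all 4 had fold changes above 0 in granulin 2 against the null, with a median of 1.84. The level of unc-54 (chromosome I, 14855901 to 14863482), the major chain, was 161, 459.8, 199 and 3178 in wild type, 329, 422, 153 and 323 in the null, 246, 507, 189 and 313 in granulin 1, 1456, 514, 1129.7 and 1777 in granulin 2, and 851, 538, 136 and 1783 in granulin 3. All granulin 2 libraries were above all null libraries, as in 20.8% of all genes, and wild-type replicate 4 exceeded every granulin 2 library. Against the null, the log2 fold change of granulin 2 was 1.94 ± 0.81, adjusted p = 0.0994, and that of granulin 3 1.00 ± 0.81, adjusted p = 0.489. The minor chain myo-3 (chromosome V, 12226817 to 12234343), which sits at the filament centre, was at 14.4, 34.6, 18.1 and 185 in wild type, 28.1, 33.8, 16.95 and 27.5 in the null, 15.2, 29.2, 1.99 and 25.9 in granulin 1, 104.1, 33.7, 148 and 166 in granulin 2, and 46.4, 20.1, 5.07 and 111 in granulin 3. It was above 100 CPM in wild-type replicate 4, in granulin 2 replicates 1, 3 and 4 and in granulin 3 replicate 4, and granulin 2 against the null was 1.90 ± 0.92, adjusted p = 0.166. The ratio of unc-54 to myo-3 was 7.65 to 26.8 in 19 libraries and 95.1 in granulin 1 replicate 3.

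The pharyngeal chains were scarce and uneven between libraries. The level of myo-1 (chromosome I, 7258946 to 7267057) was 2.19, 4.05, 0.445 and 3.39 in wild type, 3.29, 6.11, 1.97 and 1.79 in the null, 5.55, 3.35, 0.0362 and 2.50 in granulin 1, 23.01, 1.09, 3.35 and 38.8 in granulin 2, and 13.1, 0.381, 0.302 and 27.6 in granulin 3. That of myo-2 (chromosome X, 12468061 to 12475348) was 2.66, 4.78, 0.465 and 3.98 in wild type, 4.07, 6.94, 1.45 and 1.53 in the null, 6.02, 5.18, 0.0362 and 2.32 in granulin 1, 32.05, 1.53, 3.63 and 50.6 in granulin 2, and 15.4, 0.870, 0.420 and 27.2 in granulin 3. In granulin 2 both were lowest in replicate 2 and higher in replicates 1 and 4, and in granulin 3 both were lowest in replicate 3, next lowest in replicate 2 and higher in replicates 1 and 4. Every strain overlapped every other, and a replicate number does not link libraries of different strains. Granulin 2 against the null was 1.38 ± 1.47, adjusted p = 0.599, for myo-1 and 1.79 ± 1.45, adjusted p = 0.457, for myo-2. The ratio of myo-2 to myo-1 stayed between 0.737 and 2.28 in all 20 libraries. Both had 2 reads in granulin 1 replicate 3, the lowest count of any member.

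The light chains showed no call. The essential light chain mlc-3 was at 136 to 862 CPM in wild type, 144 to 351 in the null and 89.5 to 212 in granulin 2. The regulatory chains mlc-1 and mlc-2 ranged over the 20 libraries from 94.5 to 598 and 217 to 2439 CPM, both highest in granulin 1 replicate 3. The exons of mlc-2 overlap C36E6.2 on the other strand by 77 bases.

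Of the calcium channels, neither was called. The voltage-gated channel egl-19, which starts the contraction, was at 5.80 to 8.12 CPM in the null, 7.49 to 11.6 in wild type and 6.30 to 12.2 in granulin 2. The ryanodine receptor unc-68, which releases stored calcium, was at 21.03 to 32.95, 32.3 to 69.4 and 19.4 to 95.1 CPM. Both were lowest in granulin 1 replicate 3.

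**Figure D4:**
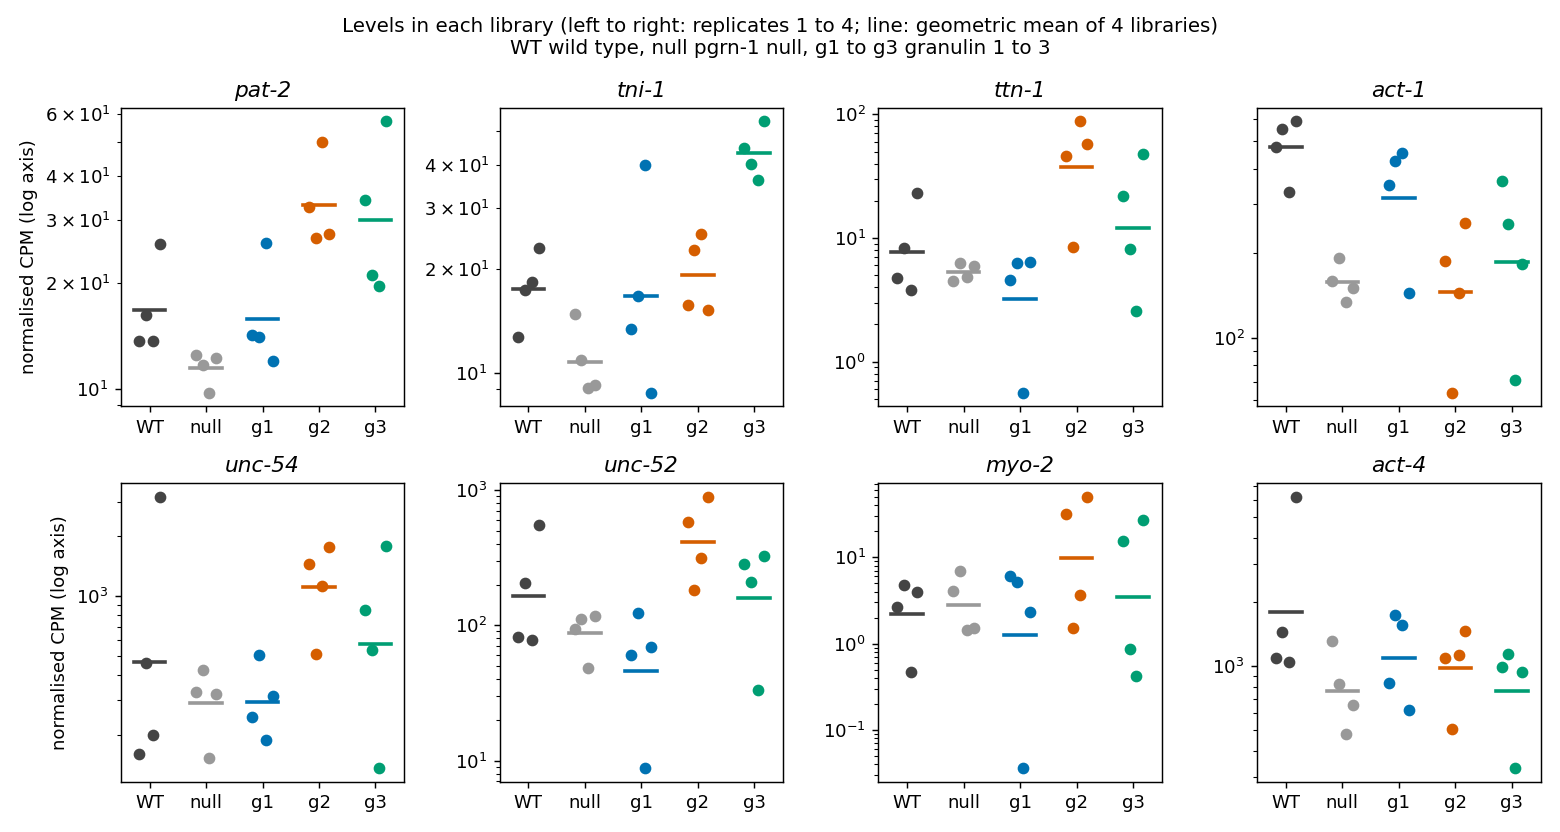
Levels of 8 of the genes in each library, in scaled CPM on log axes of different range, with 4 libraries per strain from left to right as replicates 1 to 4 and a line at their geometric mean. The pat-2 points of granulin 2 (26.7 CPM or more) lie above wild type and the null, the tni-1 points of granulin 3 (36.1 to 53.5) above wild type, the null and granulin 2, and in unc-54, unc-52, myo-2 and act-4 single libraries span most of the range.

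Fold changes of the members varied with exon length, from 641 bases for mlc-2 to 56044 for ttn-1. In granulin 2 against the null, the 20 members above 2206.5 bases had a median log2 fold change of 0.96, with 17 of 20 above 0, and the 20 shorter ones had -0.05, with 7 of 20. Pearson's r between log2 fold change and log2 length over the 40 genes was 0.79, and Spearman's rho 0.65. In granulin 3 against the null these were 0.39 and 0.44, and in granulin 1 against the null -0.71 and -0.69, where the longer members had a median of -0.43 and the shorter 0.46. They are descriptions across genes of the same libraries. In the null against wild type r was -0.12. In single libraries, the slope of the members' deviations from their own means on log2 exon length was -1.30 in granulin 1 replicate 3. It was -0.12, -0.08 and -0.03 in granulin 1 replicates 1, 2 and 4 and -0.22 to 0.01 in the null. The trend of granulin 1 against the null thus lay in replicate 3. Within granulin 1 replicate 3 the 20 longer members lay at a median of -1.93 log2 units from their own means over all libraries. The shorter lay at 1.37. The length slope over protein-coding genes, taken on transcript and not on exon length, was the lowest of the 20 in this library. The part of library length composition in the members' fold changes was not tested. With the length slope as a covariate, 9 members were called higher in granulin 2 than in the null (unc-54, myo-3, tnt-4, tni-1, unc-22, unc-89, ttn-1, unc-52 and pat-2), with 34.2% of all genes called, and pat-2 kept its calls against the null in granulin 2 and 3 and tni-1 its call in granulin 3.

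**Figure D5:**
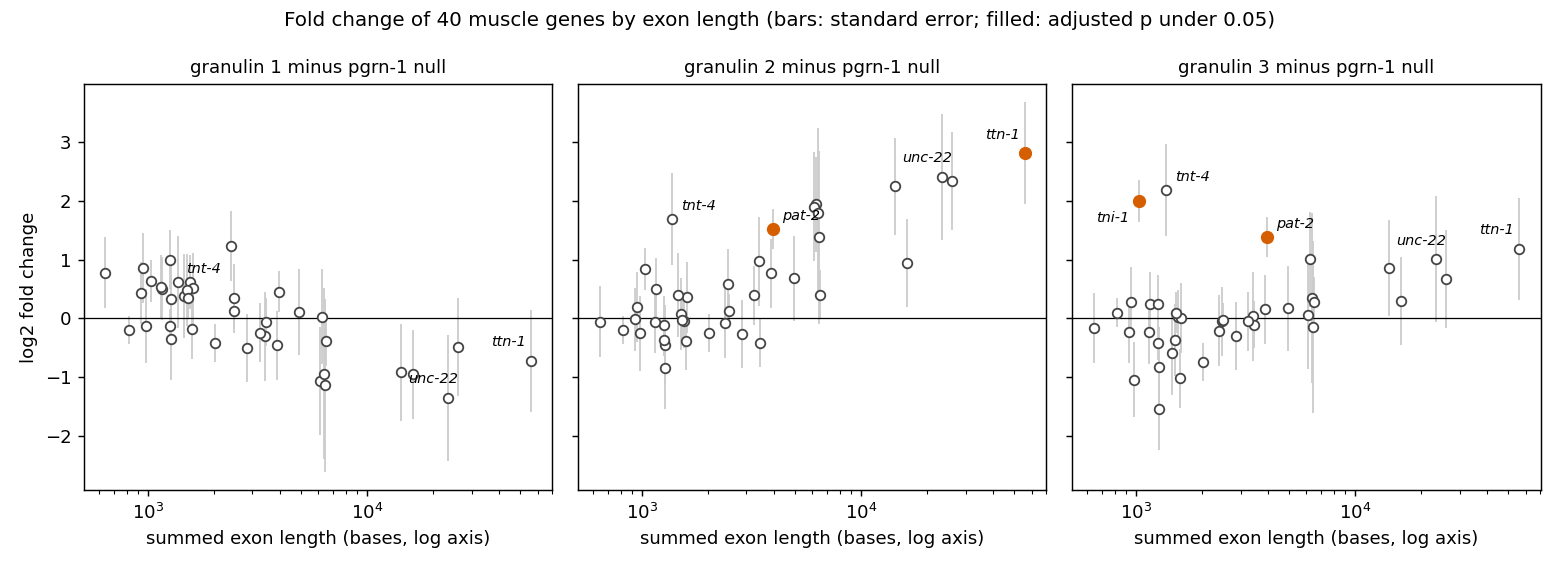
Log2 fold change of the 40 genes against summed exon length in bases (log axis) for each granulin strain minus the null, with standard errors; filled points passed the threshold. Long genes lie low in granulin 1 and high in granulin 2 (Pearson's r -0.71 and 0.79), while tni-1, one of the short genes, is high in granulin 3. The trend in granulin 1 lies in replicate 3, where the members' slope on log2 length was -1.30, against -0.12 to -0.03 in its other libraries.

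The summed members set 3 libraries apart. Over all 40 genes, wild-type replicate 4 held 25609 CPM, against 5835 to 7421 in the other 3 wild-type libraries, and 33 of the 40 genes were higher there than in each of the other 3, by a median ratio of 3.54. The factor that scaled its depth was 0.428, against 0.823 to 1.00 in the other 3. The members took 1.10% of its reads before scaling, against 0.571% to 0.618%. Of reads outside ribosomal RNA they took 1.99%, against 0.607% to 0.642%. The rise in wild-type replicate 4 was not particular to the members. Sums in this library were also high for intestine genes, 10449 CPM (others 2659 to 2970), and hypodermis genes, 6041 (others 1431 to 1908). Oocyte genes were low at 7739 (others 16966 to 27165), and pharynx and sperm sums were within the range of the others. In granulin 1 replicate 3, 19 genes were above and 18 below each of the other 3 libraries, with median ratios of 3.12 for the shorter and 0.284 for the longer genes. In granulin 3 replicate 3, 30 genes were below the other 3 and none above, at a median ratio of 0.293. The drop there was not particular to the members either. Sums were also the lowest of the strain for intestine genes, 744 CPM (others 1439 to 3085), and hypodermis genes, 749 (others 1330 to 2290). The same held for the lists of other muscle, basement membrane and muscle regulator genes. Pharynx, neuron, sperm and oocyte sums were within the range of the others. These libraries were singled out after their values were seen. Without both wild-type replicate 4 and granulin 1 replicate 3, the calls of pat-2, tni-1, ttn-1 and act-1 stood, and more members passed. Granulin 2 was then higher than the null in 6 members (unc-54, unc-22, unc-89, ttn-1, unc-52 and pat-2), with 32.2% of all genes called. Against wild type 7 were higher and 1 lower, with 26.3% of all genes called. Granulin 3 differed from the null in 5 members, tnt-4, tni-1 and pat-2 higher and pat-10 and unc-78 lower, with 18.8% of all genes called.

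Among 54 other muscle genes, a list of further structural, receptor and channel genes, 6 were higher in granulin 2 than the null and none lower, with a median of 0.44. These 6 are 11.1% of the list, under the 17.5% of all genes that were higher. They included slo-1, a calcium-activated potassium channel (2.24 ± 0.54, adjusted p = 0.00434), dyb-1, the dystrobrevin of the dystrophin complex (1.72 ± 0.39, adjusted p = 0.00229), and ccb-1, a calcium channel beta subunit (1.33 ± 0.33, adjusted p = 0.00456). In granulin 3 against the null 3 were higher, lev-8, an acetylcholine receptor subunit (2.33 ± 0.41, adjusted p = 0.00088), tmd-2, a tropomodulin that caps thin filaments (1.06 ± 0.27, adjusted p = 0.0118), and unc-120, a muscle transcription factor (0.98 ± 0.32, adjusted p = 0.0443), or 5.56% of the list against 11.2% of all genes. Against wild type, the pharyngeal troponin C tnc-2 was higher in granulin 2 (1.84 ± 0.37, adjusted p = 0.000811). It was also higher in granulin 3 (1.82 ± 0.37, adjusted p = 0.00161), where lev-8 was also higher (1.87 ± 0.41, adjusted p = 0.00302). None of the 54 was called in the null against wild type or in granulin 1 against either. Of 20 basement membrane genes tested, 2 were higher in granulin 2 than the null, him-4, the hemicentin (3.62 ± 0.75, adjusted p = 0.0011), and pxn-2, a peroxidasin (2.05 ± 0.51, adjusted p = 0.00495), and none in granulin 3. The 2 are 10% of that list, also under 17.5%.

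Markers of other tissues also differed between these strains. Sums over 40 sperm genes ran from 9.89 to 25.1 CPM in wild type and from 18.2 to 49.4 in the null. Granulin strain 1 had 29.99 to 83.1, granulin strain 2 had 302 to 648 and granulin strain 3 had 44.8 to 479. All 39 tested were higher in granulin 2 than the null and 24 (61.5%) in granulin 3, where 17.5% and 11.2% of all genes were higher. Of 14 hypodermis genes, 5 were higher in granulin 2 and 3 in granulin 3, with sums of 1025 to 1477 CPM in the null, 1218 to 5390 in granulin 2 and 749 to 2290 in granulin 3. Of 17 neuron genes, 6 were higher and 1 lower in granulin 2, and 1 higher in granulin 3. Of 9 pharynx genes tested, 1 was higher in granulin 2 than the null and none in granulin 3, with sums over 13 genes of 10.8 to 16.5 CPM in the null, 11.96 to 46.9 in granulin 2 and 9.91 to 39.3 in granulin 3. The 17 oocyte genes had no call in either strain against the null and summed to 6463 to 23044 CPM in the null, 3109 to 27424 in granulin 2 and 2920 to 17383 in granulin 3. Of 12 intestine genes 1 was higher in each of both strains, and of 8 muscle regulators 2 were higher in granulin 2 and 1 in granulin 3. The share of genes higher in granulin 2 than the null was above the 17.5% of all genes for sperm, hypodermis, neurons and muscle regulators and below it for pharynx, intestine and oocytes. In granulin 3 it was above 11.2% for sperm, hypodermis and, at 12.5%, muscle regulators, and below it for the other lists. The part of these tissues in the levels of the muscle genes was not tested.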

How the data were processed

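Each library's table holds log2 CPM, log2 counts relative to library size, for 46778 genes, as the authors deposited it. Per the submitters' processing notes, the authors used STAR, HTSeq, edgeR, limma and the ce11 build; their versions, and whether counting used strand, are not stated there. Per the labels' protocols, stranded total RNA libraries were made. The values have a floor of -5.05 and a prior count of 2, and whole reads were recovered from them within 0.01 reads, with 8 values not whole. Reads were scaled by the trimmed mean of M-values (trims of 30% and 5%) and tested as log2 CPM with limma 3.58.1 in R 4.3.3 (mean-variance trend, robust), with 20 libraries in 1 fit. Genes needed 0.177 CPM in 4 libraries and 15 reads in all, which left 15737. The fit was tested on simulated data. Of the gene IDs 46603 matched Ensembl release 115 (WBcel235, the same assembly as ce11), which gave positions and exon lengths, and 175 did not. No libraries of a strain were alike within sampling noise. Groups came from the strain label, since the group label names AWK33 for all 3 granulin strains. Values per library are given for members called in any test, the myosin heavy chains, the actins and unc-52; pat-3 was added after its values were seen. Members and lists were chosen with earlier results of these data known. Alternatives covered scaling, filter, prior count, voom, gene set, length covariate, array weights, a replicate block and left-out libraries. Sequences are not used here.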

Additional observations from a re-analysis of the deposited data

Results flagged for a closer look

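Dixon's criterion, the gap to the nearest other library over the whole range, was taken on log2 levels within each strain. In 27 of the 205 groups of 4 libraries examined (13.2%), it set the highest or lowest library far from the other 3. Chance gives about 1 in 20. Values printed below are scaled CPM and not log2 levels, with the range of the other 3 libraries of the strain in brackets. The flags of 1 library are not independent of each other.

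Wild-type replicate 4 was high for 11 genes and for the sum of all 40, 25609 against 5835 to 7421. Among light chains these were mlc-1 at 554 (others 124 to 137), mlc-2 at 1726 (others 353 to 422) and mlc-3 at 862 (others 136 to 172). Among thin filament genes they were lev-11 at 1911 (others 379 to 433), mup-2 at 536 (others 67.02 to 83.5), tnt-2 at 1899 (others 302 to 365), unc-27 at 525 (others 149 to 167) and unc-78 at 30.4 (others 16.7 to 17.7). The others were dim-1 at 315 (others 64.997 to 71.2), unc-95 at 21.7 (others 6.01 to 6.72) and atn-1 at 130.1 (others 27.2 to 29.3). This library had 44.8% ribosomal RNA, and its sums over intestine and hypodermis genes were also high. The part of either in these values was not tested.

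Granulin 1 replicate 3 was high for tni-3 at 83.6 (others 8.33 to 12.3), unc-97 at 69.7 (others 17.8 to 20.8) and unc-112 at 69.1 (others 32.04 to 36.3). It was low for act-2 at 332 (others 1074 to 1208), unc-22 at 0.724 (others 15.5 to 27.8), ttn-1 at 0.561 (others 4.58 to 6.44), egl-19 at 2.12 (others 7.50 to 7.77) and unc-68 at 1.72 (others 29.8 to 31.3). Its length slope over protein-coding genes was -0.83, and the part of that slope in these values was not tested.

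Null replicate 1 was high for unc-97 at 27.1 (others 18.4 to 19.3) and low for pat-3 at 58.5 (others 157 to 173) and unc-68 at 21.03 (others 31.7 to 32.95). Granulin 3 replicate 3 was low for act-4 at 331 (others 934 to 1135) and tnt-2 at 78.1 (others 240.5 to 293). Granulin 3 replicate 2 was low for unc-45 at 39.5 (others 90.6 to 102.2), and granulin 3 replicate 4 was high for pat-10 at 386 (others 189.6 to 213).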

How the results depend on the processing

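Granulin 1 gave no called member against the null or wild type under any of the 23 alternatives to each comparison. In the null against wild type, array weights alone gave a count other than 0, with 4 members (act-1, act-3 and tni-1 lower and pat-6 higher), or 10%, against 14.6% of all genes. In the order of the F test, both strains (granulin 2, then 3) set against the null, and both set against wild type, counts were 3, 2, 2, 2 and 1, beside 21.5%, 21.6%, 12.7%, 18.3% and 11.2% of all genes called. With the length slope as a covariate they were 9, 9, 5, 8 and 2, beside 40.9%, 34.2%, 23.3%, 31.3% and 16.6%. With array weights they were 15, 15, 8, 13 and 5, beside 55.3%, 47%, 35.4%, 42.1% and 18.1%. Without the 5 libraries of lowest length slope they were 12, 12, 9, 10 and 6, beside 26.3%, 27.1%, 16.7%, 23.6% and 12.5%. The share of the 40 members called was under that of all genes in these 5 tests. In their alternatives it was above that of all genes only without those 5 libraries, in all 5 tests (30%, 30%, 22.5%, 25% and 15%). Both shares were 10% for granulin 3 against the null without granulin 3 replicate 4. With no scaling beyond total depth the F test gave 6, granulin 2 compared with the null gave 4, and granulin 3 compared with wild type also gave 4. The shares of all genes there were 19.1%, 14.3% and 17.6%. Granulin 2 against wild type gave 1 with no filter, a filter of 1 CPM, a prior count of 0.5 or protein-coding genes alone. It also gave 1 in a fit of these strains alone, and 11.8% to 17.9% of all genes were called in these fits. A fit of granulin 2 and the null alone gave 9, with 24.9% of all genes called. Of the alternatives chosen after seeing the data, leaving out the 4 libraries over 20% ribosomal RNA gave 1 in the comparison of granulin 2 with the null and 2 in that of granulin 3 with wild type. Of all genes, 17% and 13.2% were called there. Leaving out wild-type replicate 4 and granulin 1 replicate 3 gave 6 and 5 for granulin 2 and 3 against the null and 8 and 2 against wild type. The shares of all genes were 32.2%, 18.8%, 26.3% and 14.2% in that order. Leaving out 1 library at a time gave 2 to 6, 1 to 4, 1 to 4, 0 to 4 and 0 to 2. The shares of all genes then ran from 17.6% to 26.6%, 17.2% to 21.3%, 7.08% to 11.8%, 15.2% to 20% and 9.59% to 10.8%. The cause of these shifts was not tested. The calls of pat-2 in granulin 2 and tni-1 in granulin 3 against the null stood under all 23 alternatives, with log2 fold changes of 1.29 to 1.74 and 1.84 to 2.37. The call of pat-2 in granulin 2 against wild type was lost in 12 and that of ttn-1 against the null in 7. No called fold change reversed. Genes with few reads, such as myo-1 and myo-2 with 2 reads in 1 library, carry counting error beside the spread of libraries.

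With the label letter as a replicate block, the F test gave 7 members (20.2% of all genes) and granulin 2 against the null gave 6 (20.5% of all genes), and pat-2 in granulin 2 against wild type had an adjusted p of 0.0939 (limma). Deviations of same-letter libraries from their strain means correlated at -0.59 to 0.58. The own letter correlated best in 6 of 16 cases, 3 of them between granulin 3 and granulin 1 (0.50, 0.21 and 0.45, with -0.09 for the fourth letter), and each pair of strains had a negative value among its 4. The labels give the letters no meaning and pairing was not taken from them; shared handling of same-letter libraries was not tested.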
